A study of Mus musculus with 6 samples.

Results

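Transcripts of 10 apolipoprotein genes, Apoa1, Apoa2, Apoa4, Apoa5, Apob, Apoc2, Apoc3, Apoe, Apoh and Apom, were compared between Tmod3 knockout and wild type fetal livers. They were found by the exact gene symbol in the array's annotation, with the brightest probe set kept for a gene, and 9 of the 10 were measured among 19938 named genes. The probe set of Apoc2 is annotated to a further gene, Gm44805, as well, so Apoc2 was not analysed here. The knockout group held 3 livers of Tmod3-/- embryos, recorded as small and from anemic embryos, and the wild type group held 3 livers of Tmod3+/+ embryos recorded as normal. All embryos were C57BL/6J at embryonic day 14.5, each liver came from a separate embryo, and each RNA was hybridised to an Affymetrix MoGene 1.0 ST array. Tmod3 encodes tropomodulin 3, which caps the slow-growing ends of actin filaments. Which part of Tmod3 is disrupted, whether the allele acts in all cells and whether embryos shared litters are not given in the sources used here.

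Apolipoproteins are the protein coat of the particles that carry cholesterol and triglyceride in blood. Apob forms the scaffold of very low density and low density lipoproteins, and Apoa1 and Apoa2 that of high density lipoproteins. Other members such as Apoe and the Apoc proteins direct uptake by receptors and lipolysis. In the embryo they are made chiefly by hepatoblasts and by the visceral endoderm of the yolk sac, and the fetal liver is at the same time the main organ of red cell formation, so hepatoblasts are only part of its cells. In whole-liver RNA, fewer hepatoblasts and less of a transcript in each of them cannot be told apart.

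Values are deposited RMA levels, read as log2, in which a difference of 1 is a doubling. Tmod3 itself read 1.32, 2.36 and 1.30 in knockout arrays and 4.49, 4.78 and 4.90 in wild type arrays, so each array matched its label. The 6 arrays correlated at 0.974 to 0.990 over all probe sets. Knockout replicate 1 and wild type replicate 1 correlated at 0.983, above any pair of knockout arrays (0.980 to 0.981). Brighter genes read lower in knockout arrays in general: the median log2 fold change, knockout minus wild type, was -0.25 over the 2545 genes whose mean reached 3, and 0.01 over all genes. The first of these was -0.06 both after renewed quantile normalization and after cyclic loess, so the shift of brighter genes depended on the scaling. The sources used here name no batch. With 3 arrays a group, precision is set by how few arrays there were.

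No apolipoprotein passed the threshold of an adjusted p under 0.05 (limma, adjusted over all genes), in either direction. At an unadjusted p under 0.05, 2 of the 9 measured members, Apoh and Apoa1, were lower in knockout liver and 0 were higher. The count of lower members was 4 without knockout replicate 1, 1 without knockout replicate 3 or wild type replicate 3, and 4 with array weights. After renewed quantile normalization 3 members were lower and 1 was higher, the only run with a member higher. The background at adjusted p was 0.015% of all genes lower and 0% higher, and 0.118% lower among genes with a mean of at least 3. At unadjusted p it was 6.44% lower and 2.59% higher over all genes, and 26.6% lower and 2.28% higher among genes with a mean of at least 3, which 6 of the 9 members reached. Among genes with a mean of at least 5 it was 25.2% lower and 4.49% higher. The median log2 fold change of the 9 members was -0.31, and 6 of the 9 were negative, where 48.4% of all genes were negative and 51.6% positive. Among genes with a mean of at least 3, 80.6% were negative and 19.4% positive, and among those with a mean of at least 5, 78.9% and 21.1%. The lowest and highest log2 fold changes of the 9 members were those of Apoh and Apoe, picked after the values were seen. Apoh lay at -1.24, with 0.511% of the 2545 brighter genes below it, and Apoe at +0.24, with 93.8% of them below it. Neither passed (limma adjusted p = 0.350 and 0.859), and the groups overlapped for Apoe. Any set has a lowest and a highest member, so these 2 values do not show that the members went apart.

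**Figure D1:**
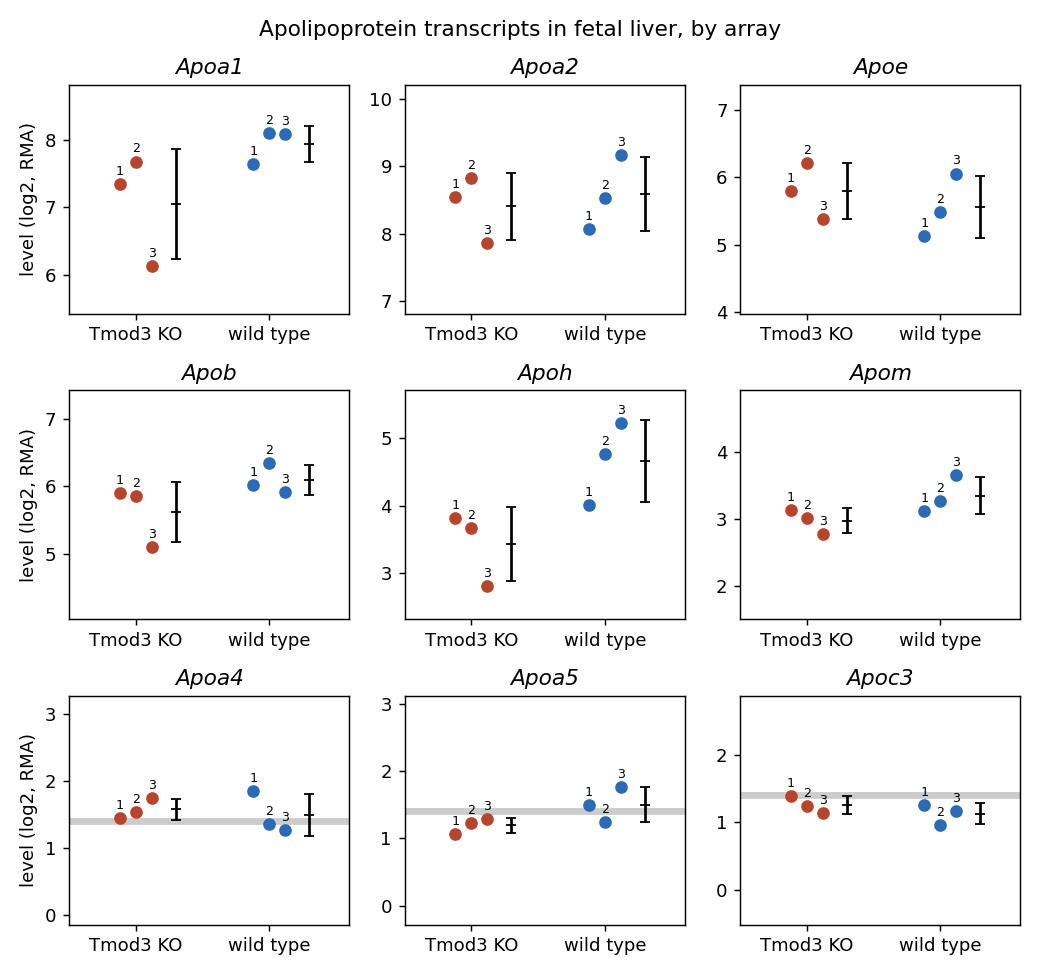
Level (log2, RMA) of the 9 measured apolipoprotein transcripts in each array, with Tmod3 knockout on the left and wild type on the right of each panel. Points are arrays numbered by replicate, black bars are the mean and SD (n = 3), every panel spans the same number of log2 units, and the grey band is the range of array medians (1.36 to 1.43). The 3 knockout arrays lie below all 3 wild type arrays for Apob and Apoh.

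Apoa1, the main protein of high density lipoprotein and activator of the enzyme LCAT, read 7.35, 7.68 and 6.13 in knockout arrays and 7.64, 8.11 and 8.09 in wild type arrays. Knockout replicate 3 lay far below the rest, and knockout replicate 2 lay above wild type replicate 1, so the groups overlapped. Knockout livers averaged 7.06 ± 0.82, against 7.95 ± 0.27 in wild type livers (SD, n = 3 each). The log2 fold change of -0.89 had a 95% interval of -1.72 to -0.06 (limma adjusted p = 0.520). Without knockout replicate 3 the log2 fold change was -0.43.

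Apoa2, the other major protein of high density lipoprotein, read 8.54, 8.83 and 7.86 in knockout arrays and 8.07, 8.53 and 9.16 in wild type arrays. The groups were interleaved. The log2 fold change was -0.18 with a 95% interval of -0.90 to 0.54 (limma adjusted p = 0.915), and its sign turned without knockout replicate 3 (+0.09) or wild type replicate 3 (+0.10). The interval holds values on both sides of 0, so these arrays do not settle a direction for Apoa2.

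Apom, a lipocalin that carries sphingosine 1-phosphate on high density lipoprotein, read 3.14, 3.01 and 2.77 in knockout arrays and 3.12, 3.26 and 3.65 in wild type arrays. Knockout replicate 1 lay just above wild type replicate 1, and the other knockout arrays lay below all wild type arrays. Its log2 fold change of -0.37 had a 95% interval of -0.74 to 0.0015 (limma adjusted p = 0.556), and it was -0.22 without wild type replicate 3.

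Apob, the scaffold protein of very low density and low density lipoprotein, read 5.90, 5.85 and 5.10 in knockout arrays and 6.02, 6.35 and 5.92 in wild type arrays. Every knockout array lay below every wild type array, by a small margin for knockout replicates 1 and 2. Its log2 fold change of -0.48 had a 95% interval of -0.99 to 0.04 (limma adjusted p = 0.585). The two-sided exact permutation p was 0.1, which is as low as 3 against 3 arrays can give. It was -0.22 without knockout replicate 3, and -0.27 after a further quantile normalization.

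Apoe, the ligand by which lipoprotein remnants are taken up through the LDL receptor family, read 5.80, 6.21 and 5.37 in knockout arrays and 5.13, 5.49 and 6.06 in wild type arrays. The highest reading was a knockout array and the lowest a wild type array, and the groups overlapped. The log2 fold change was +0.24 with a 95% interval of -0.39 to 0.86 (limma adjusted p = 0.859). It was 0.02 without wild type replicate 1 and 0.49 without wild type replicate 3.

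Apoh, also called beta-2-glycoprotein I, a plasma protein that binds anionic phospholipid, read 3.82, 3.67 and 2.81 in knockout arrays and 4.01, 4.77 and 5.22 in wild type arrays. Every knockout array lay below every wild type array, wild type replicate 1 by the smallest margin. Knockout livers averaged 3.43 ± 0.55, against 4.67 ± 0.61 in wild type livers (SD, n = 3 each). The log2 fold change of -1.24 had a 95% interval of -2.03 to -0.44 (limma adjusted p = 0.350; two-sided exact permutation p = 0.1). By unadjusted p it ranked 401 among all genes. The adjusted p was 0.0693 without wild type replicate 1 and between 0.374 and 0.864 when another array was left out.

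Apob and Apoh were thus the 2 of 9 members whose groups did not overlap, both lower in knockout liver. The background was 7.1% of all genes lower and 6.14% higher without overlap, 21.3% lower and 2.2% higher among genes with a mean of at least 3, and 19.9% lower and 3.97% higher among those with a mean of at least 5. Against that share, 2 of the 6 brighter members is no result about apolipoproteins.

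**Figure D2:**
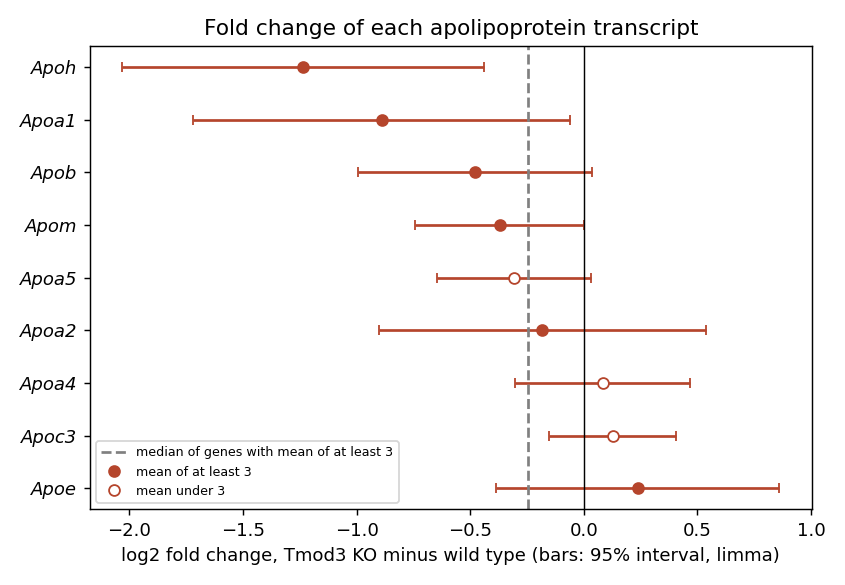
Log2 fold change, Tmod3 knockout minus wild type, of the 9 measured members with 95% intervals from limma. Filled points are members with a mean level of at least 3, open points those under 3, and the dashed line is the median of all genes with a mean of at least 3 (-0.25). The intervals of Apoh and Apoa1 do not reach 0, and the point for Apoe lies on the positive side.

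Apoa4, Apoa5 and Apoc3 read at or near the floor of the measurement. Apoa4, a protein of intestinal chylomicrons, read 1.44, 1.54 and 1.75 in knockout arrays and 1.85, 1.36 and 1.27 in wild type arrays. Apoa5, which promotes triglyceride lipolysis in plasma, read 1.06, 1.22 and 1.29 in knockout arrays and 1.49, 1.24 and 1.77 in wild type arrays. Apoc3, an inhibitor of lipoprotein lipase, read 1.4, 1.25 and 1.13 in knockout arrays and 1.25, 0.96 and 1.17 in wild type arrays. Array medians over all probe sets were 1.36 to 1.43. By mean over the 6 arrays, Apoa4 lay at percentile 59.7 of all genes, Apoa5 at 42.4 and Apoc3 at 22.5, and the highest of these readings was 1.85, for Apoa4 in wild type replicate 1. Their log2 fold changes were 0.08, -0.31 and 0.13, with limma adjusted p of 0.932, 0.596 and 0.822, and carry no direction.

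Of the 6 brighter members, 5 varied more between embryos of a genotype than the median gene of like level, and Apom varied less. The SD within a group, pooled over knockout and wild type, was 0.61 for Apoa1, 0.58 for Apoh, 0.52 for Apoa2, 0.44 for Apoe, 0.36 for Apob and 0.23 for Apom, against a median of 0.27 over genes with a mean of at least 3. Of those genes, 96.5% had a smaller SD than Apoa1 and 95.8% a smaller one than Apoh, while 37.0% had a smaller one than Apom. Knockout replicate 3 was the lowest knockout array for 7 of the 9 members and the lowest of all 6 arrays for 5 of them. Wild type replicate 1 was the lowest wild type array for 5 of 9, and wild type replicate 3 the highest of all arrays for 4 of 9.

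**Figure D3:**
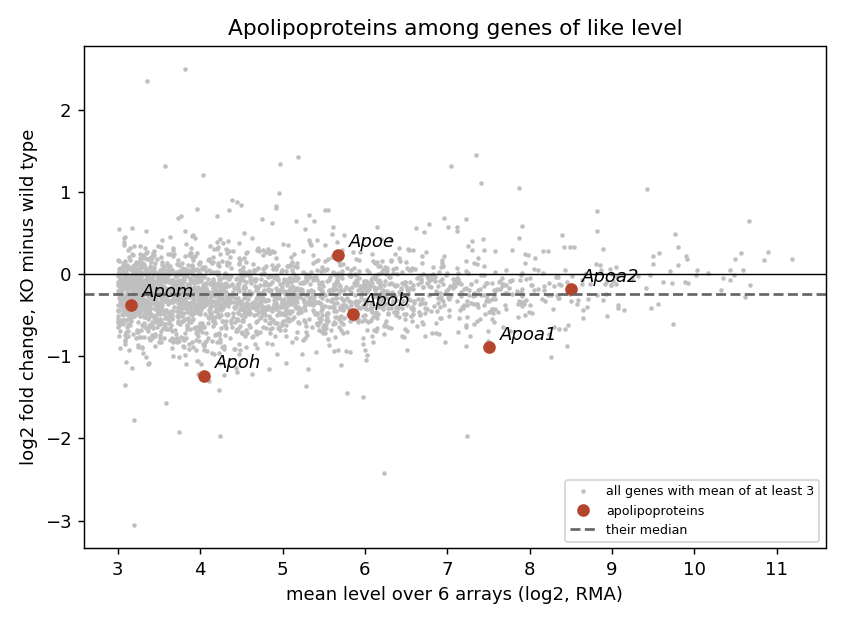
Mean level over the 6 arrays (log2, RMA) against log2 fold change, knockout minus wild type, for the 2545 genes with a mean of at least 3 (grey) and the 6 apolipoproteins among them (red). The dashed line is the median of the grey points (-0.25); Apoh and Apoa1 lie near their lower edge, Apoa2, Apob and Apom within their bulk, and Apoe above most of them.

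The members were also compared with each other within each array, as the difference of 2 log2 levels. Such a difference shows unequal change between probe sets and not which of them changed. Of the 15 pairs among the 6 brighter members, 8 separated the knockout from the wild type arrays without overlap, 53.3%, where 19.7% of all 3237240 pairs of genes with a mean of at least 3 did so. The 15 pairs share 6 genes and are not independent. Apoe and Apoh, the members with the highest and the lowest log2 fold change, took part in 4 of their 5 pairs each. Apoa1 minus Apoa2 was the only pair without overlap that held neither of them. The 53.3% is therefore no result about apolipoproteins as a group.

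Apoe minus Apoh was 1.97, 2.54 and 2.57 in knockout arrays and 1.12, 0.72 and 0.83 in wild type arrays. The groups lay well apart, averaging 2.36 ± 0.34 in knockout livers, against 0.89 ± 0.21 in wild type livers (SD, n = 3 each), a shift of 1.47 (two-sided exact permutation p = 0.1, the smallest possible). Apoa2 minus Apoh was 4.71, 5.16 and 5.05 in knockout arrays and 4.06, 3.76 and 3.94 in wild type arrays, a shift of 1.05 in the same direction (exact permutation p = 0.1). Apoa1 minus Apoe was 1.56, 1.47 and 0.76 in knockout arrays and 2.51, 2.62 and 2.04 in wild type arrays, a shift of -1.13 (exact permutation p = 0.1). The comparison of pairs was added after the values were seen, and these pairs were picked from it. Apoe had the highest and Apoh the lowest log2 fold change of the measured members. The permutation p-values of these pairs are therefore descriptions and lend no support.

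Apoa2 and Apoe, whose levels ranged widely among embryos, kept a near constant ratio within each genotype. Apoa2 minus Apoe was 2.74, 2.61 and 2.49 in knockout arrays and 2.95, 3.05 and 3.11 in wild type arrays. The SD of this difference was 0.13 over knockout arrays and 0.08 over wild type arrays, while Apoa2 alone had SDs of 0.50 over knockout arrays and 0.55 over wild type arrays. The shift of -0.42 between genotypes was small but without overlap (exact permutation p = 0.1). This pair too was singled out from the 15 after its values were seen.

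**Figure D4:**
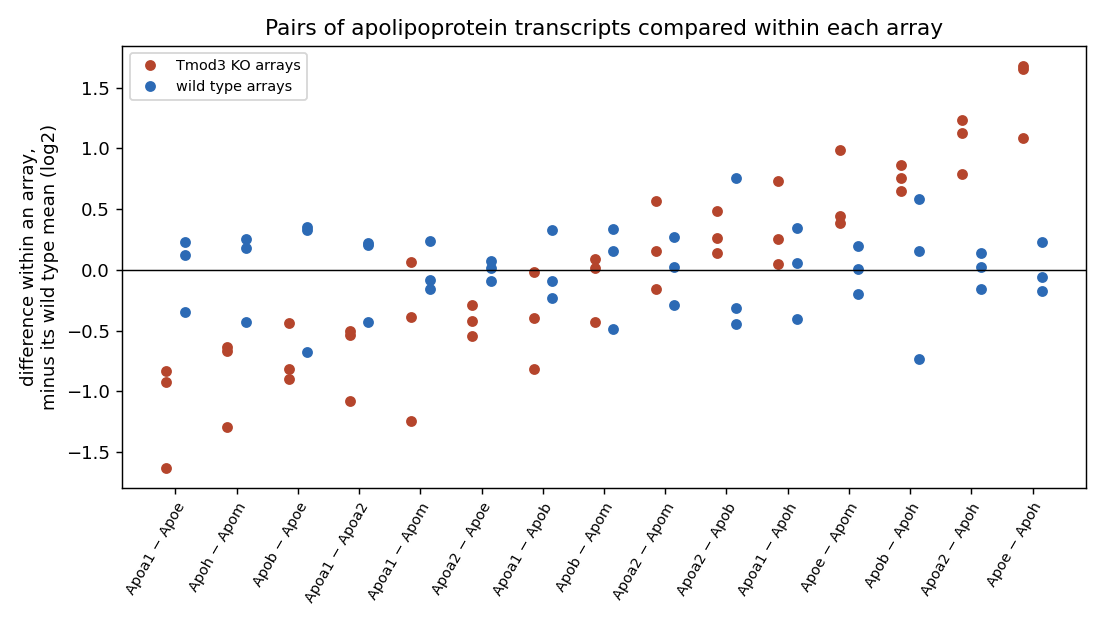
Within-array differences between the 15 pairs of brighter apolipoprotein transcripts, each drawn minus its mean over wild type arrays (log2), with knockout arrays in red to the left and wild type arrays in blue to the right of each pair's position. Pairs are ordered by the shift between genotypes, from Apoa1 minus Apoe (-1.13) to Apoe minus Apoh (+1.47); 8 of the 15 show no overlap.

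Set against the mean of the other 8 measured members in the same array, Apoe was higher and Apoh and Apoa1 lower in knockout liver without overlap, while the other 6 members overlapped. Apoe stood 1.71, 2.08 and 1.77 above that mean in knockout arrays and 0.95, 1.16 and 1.52 in wild type arrays. Apoh stood at -0.50, -0.78 and -1.12 in knockout arrays and at -0.31, 0.36 and 0.59 in wild type arrays. Apoa1 stood at 3.47, 3.73 and 2.62 in knockout arrays and at 3.77, 4.11 and 3.82 in wild type arrays. Against the mean of the 9 members, 17.6% of all genes lay higher and 0.722% lower without overlap, and among genes with a mean of at least 3, 9.12% higher and 4.36% lower. The Apoa1 difference of -0.62 was -0.30 without knockout replicate 3.

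Several members lie in gene clusters. In the gene order of the assembly GRCm38.p6, Apoa1, Apoc3, Apoa4 and Apoa5 are adjacent, between Sik3 and Zpr1, and Apoe and Apoc1 are neighbours, followed on the Apoc1 side by Apoc4 and Apoc2. Apoa1 was the bright member of its cluster, while Apoc3, Apoa4 and Apoa5 beside it read near the floor in both genotypes. Sik3 had a log2 fold change of 0.23 and Zpr1 of -0.11 (limma adjusted p = 0.677 and 0.944). Tmod3 lies on the same chromosome as this cluster, and Apoe, Apoh, Apob, Apoa2 and Apom lie on others.

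The neighbours Apoe and Apoc1 did not shift alike. Apoc1, a small exchangeable apolipoprotein that slows remnant uptake, read 6.30, 5.91 and 5.67 in knockout arrays and 6.58, 6.52 and 6.69 in wild type arrays. Every knockout array lay below the wild type arrays, with a log2 fold change of -0.64 (limma adjusted p = 0.299). Apoe minus Apoc1 within an array was -0.50, 0.31 and -0.30 in knockout liver and -1.46, -1.04 and -0.64 in wild type liver, without overlap (shift 0.88, two-sided exact permutation p = 0.1). This comparison was chosen after its values were seen. Among genes with a mean of at least 3, 19.7% of all pairs separated the groups without overlap.

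The 250 bases before the annotated start are shown for Apoh, Apoe and Apoa2, the 3 members that took part in the most pairs without overlap (4, 4 and 3 of 5). The sequences are RefSeq's on GRCm38.p6, for the start listed first for each gene, read 5′ to 3′ on the strand of the gene. Apoh lies at chr11:108395047-108395296 on the plus strand, Apoe at chr7:19699189-19699438 on the minus strand and Apoa2 at chr1:171224804-171225053 on the plus strand. Capitals mark matches to any of 4 motifs searched on both strands: TATAAA (the TATA box), GTTAAT (a part of the HNF1 site), CAAAGTCCA (an HNF4 site) and AGGTCA (the core site of nuclear receptors).
Apoh: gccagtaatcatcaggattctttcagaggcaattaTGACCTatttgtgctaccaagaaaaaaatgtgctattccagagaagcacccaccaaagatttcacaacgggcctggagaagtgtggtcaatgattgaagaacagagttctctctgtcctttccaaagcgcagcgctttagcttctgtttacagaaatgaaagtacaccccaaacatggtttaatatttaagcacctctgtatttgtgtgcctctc
Apoe: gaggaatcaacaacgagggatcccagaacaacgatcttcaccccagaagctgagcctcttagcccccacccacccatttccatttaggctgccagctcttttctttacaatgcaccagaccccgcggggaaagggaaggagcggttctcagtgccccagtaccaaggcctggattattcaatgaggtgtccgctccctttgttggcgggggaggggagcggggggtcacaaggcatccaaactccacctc
Apoa2: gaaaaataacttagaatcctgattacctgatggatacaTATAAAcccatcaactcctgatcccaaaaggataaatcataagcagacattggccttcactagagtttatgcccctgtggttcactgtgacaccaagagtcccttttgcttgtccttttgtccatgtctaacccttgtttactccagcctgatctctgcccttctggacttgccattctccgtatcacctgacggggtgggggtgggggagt
Apoh holds AGGTCA on the minus strand at position -215 from the start, Apoa2 holds TATAAA at position -212, and none of the 4 letter strings is in the window of Apoe. Of the 27025 genes with a promoter in the table, 13.8% hold AGGTCA, 13% TATAAA, 6.52% GTTAAT and 0.381% CAAAGTCCA in these 250 bases. Of the 9 members with an entry there, 3 hold TATAAA (Apoa2, Apoa5 and Apob), 2 AGGTCA (Apoc2 and Apoh), 1 GTTAAT (Apoc2) and 0 CAAAGTCCA. These matches are letter strings and were not set against binding data.

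The hepatocyte identity of the signal was set beside 21 other hepatocyte and hepatoblast transcripts, apolipoproteins left out. Their mean level was 5.81, 5.85 and 5.06 in knockout arrays and 5.87, 6.14 and 6.21 in wild type arrays, with knockout replicate 3 again the lowest array. Their median log2 fold change was -0.40, 18 of 21 were negative, and 7 were lower and 0 higher at an unadjusted p under 0.05, with 0 at adjusted p (limma). The median was -0.21 without knockout replicate 3, -0.27 without wild type replicate 3 and -0.68 without knockout replicate 2. The 7 numbered 3 without wild type replicate 2 or 3, 4 without knockout replicate 3 and 10 without knockout replicate 1. A wild type mean of at least 3 was reached by 18 of the 21 markers. Among all genes with a mean of at least 3, 80.6% were negative, and 26.6% were lower and 2.28% higher at an unadjusted p under 0.05. Over all genes these shares were 48.4%, 6.44% and 2.59%. Fabp1, the fatty acid binding protein of liver, read 6.06, 4.93 and 4.09 in knockout arrays and 7.55, 7.45 and 7.33 in wild type arrays, a log2 fold change of -2.42 (limma adjusted p = 0.178). Vtn had -0.88 (-0.53 without knockout replicate 3) and Serpinc1 -0.64. The oncofetal protein gene Afp had 0.04, the transferrin gene Trf 0.05 and the hepatoblast gene Dlk1 -0.01, and these were picked after their values were seen. Over the 21 markers the log2 fold change ran from -2.42 to 0.17. Differences between the markers were not tested.

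With each array scaled to the mean of those 21 markers, Apoh stood at -1.99, -2.18 and -2.26 in knockout arrays and at -1.86, -1.37 and -0.99 in wild type arrays, still without overlap. Apoe stood at -0.01, 0.37 and 0.31 in knockout arrays and at -0.75, -0.65 and -0.16 in wild type arrays, without overlap and higher in knockout liver. The differences were -0.73 for Apoh and 0.74 for Apoe (limma adjusted p = 0.219 for both). In this fit limma gave all 9 members the same standard error, 0.32, so these p-values do not reflect the spread of a single gene. No member passed on this scale, whereas 7 of 9 passed as higher when the median of the markers replaced their mean. Apoc3, at the floor, also lay higher without overlap, so 2 of 9 members were higher and 1 lower. The background at adjusted p was 0.0301% lower and 0.14% higher, and at unadjusted p 0.115% lower and 20.4% higher. The scaling moved the median of all genes to 0.51, and in it 32.8% of all genes were higher and 0.221% lower without overlap. Apob differed by 0.02 and Apom by 0.13 on this scale. Scaled to the median of the markers, the 7 members that passed ranged from 1.27 for Apob to 1.99 for Apoe (limma adjusted p = 0.0212 and 0.00265), and the value turned to 0.52 for Apoh and 0.86 for Apoa1, which did not pass. That median averaged 5.38 over knockout arrays, against 7.13 over wild type arrays. It was the reading of Fabp1 or Fga in each knockout array and of Itih2 or Ambp in each wild type array. It thus set different genes against each other, and scaling to it raised every gene in knockout against wild type arrays by the same amount. The share of all genes that passed on this scale was not counted, so the 7 are no result about apolipoproteins.

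Other genes of lipoprotein metabolism were counted by role. Of 14 further apolipoproteins and proteins carried on high density lipoprotein, 2 were lower and 1 was higher at an unadjusted p under 0.05 and 0 at adjusted p (limma). The 2 were Apoc1, above, and Apof, a plasma apolipoprotein, which read 3.24, 2.91 and 2.40 in knockout arrays and 3.81, 3.79 and 3.62 in wild type arrays (log2 fold change -0.89, limma adjusted p = 0.252). Both lay without overlap, and without knockout replicate 3 Apof had -0.66 and Apoc1 -0.50. Saa2, a serum amyloid gene near the floor, had 0.39. The median over the 14 was -0.10, and between -0.11 and -0.05 with 1 array left out. Of the 14, 9 had a wild type mean under 2. At an unadjusted p under 0.05, 6.44% of all genes were lower and 2.59% higher.

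Genes of lipoprotein assembly and secretion had a median log2 fold change of -0.14 over 16 measured of 18 listed, and between -0.30 and -0.10 with 1 array left out. At an unadjusted p under 0.05, 6 of the 16 were lower and 0 higher, and 0 passed at adjusted p (limma). The 6 were Dgat2, which makes triglyceride (-0.80), Cideb, which loads lipid onto the nascent particle (-0.63, and -0.40 without knockout replicate 3), and the genes of export from the endoplasmic reticulum Sec23a (-0.64, and -0.43 without wild type replicate 2), Sar1b (-0.69), Mia2 (-0.80) and Surf4 (-0.62). Dgat2 read 1.39, 1.71 and 1.25 in knockout arrays and 2.04, 2.23 and 2.49 in wild type arrays. Mttp, the lipid transfer protein that Apob needs for secretion, read 2.37, 2.10 and 1.84 in knockout arrays and 2.0, 1.89 and 2.11 in wild type arrays, with overlap and a log2 fold change of 0.10. The count of 6 was 2 without knockout replicate 3 or wild type replicate 2, and 7 without wild type replicate 1, where the share of all genes lower at that p ranged from 3.95% to 11.2%. With all arrays that share was 6.44%, and it was 26.6% among genes with a mean of at least 3. Of the 16 listed genes, 5 had a wild type mean of at least 3.

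Among 11 measured genes of lipolysis and cholesterol efflux, 3 were lower and 0 higher at an unadjusted p under 0.05, and 0 passed at adjusted p (limma). Of the 11, 8 had a wild type mean under 2 and 2 a wild type mean of at least 3. Over all genes 6.44% were lower and 2.59% higher at the unadjusted p, and among genes with a mean of at least 3, 26.6% and 2.28%. Lpl, lipoprotein lipase, read 2.56, 2.31 and 2.38 in knockout arrays and 3.01, 3.28 and 2.81 in wild type arrays, without overlap (-0.62, limma adjusted p = 0.264). Lipa, the lysosomal acid lipase, had -0.62 and Abca1, the exporter that lipidates Apoa1, had -0.25. Of 13 measured receptors and uptake proteins 0 were lower and 1 was higher, namely Vldlr, the very low density lipoprotein receptor, which read 1.92, 2.55 and 1.75 in knockout arrays and 1.49, 1.49 and 1.44 in wild type arrays (0.60, limma adjusted p = 0.408; 0.36 without knockout replicate 2). In this list 12 of 13 genes had a wild type mean under 2. Of 20 measured transcription factors known to control apolipoprotein genes, 0 were lower and 1 was higher at that p, Rora (0.31), their median was 0.03 (-0.01 without knockout replicate 3), and 15 of the 20 had a wild type mean under 2. Hnf4a, which drives many apolipoprotein genes in liver, read 1.27, 1.88 and 1.49 in knockout arrays and 1.46, 1.68 and 1.83 in wild type arrays.

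Markers of other cells moved beside the members as follows. The mean level of 16 macrophage genes, a cell type that also makes Apoe, was 1.97, 1.91 and 1.56 in knockout arrays and 1.89, 2.10 and 2.30 in wild type arrays, and 4 of 16 were lower and 0 higher at an unadjusted p under 0.05. That count was 0 without knockout replicate 3 or wild type replicate 3, 1 without wild type replicate 2 and 8 without wild type replicate 1. The 4 lower genes were Aif1 (-0.40), Lyz2 (-0.75), Spic (-0.85) and C1qc (-0.31). The median log2 fold change of the 16 was -0.24, and 13 were negative. Of all genes 48.4% were negative, and of those with a mean of at least 3, 80.6%. The defining genes Csf1r and Adgre1, picked after their values were seen, had log2 fold changes of 0.02 and -0.36. Both read low, with wild type means of 1.42 and 1.67, where array medians were 1.36 to 1.43. Of the 16 macrophage genes, 9 had a wild type mean under 2. The mean of 13 erythroid genes was 4.68, 4.91 and 4.58 in knockout arrays and 4.88, 5.24 and 5.29 in wild type arrays, with 6 of 13 lower and 0 higher. A wild type mean of at least 3 was reached by 11 of the 13 erythroid and 3 of the 16 macrophage genes. At an unadjusted p under 0.05, 6.44% of all genes were lower and 2.59% higher. Among genes with a mean of at least 3 these shares were 26.6% and 2.28%. Endothelial (13 genes) and stellate or mesenchymal genes (13 genes) had medians of 0.10 and 0.14, which were 0.03 without knockout replicate 2 and 0.04 without knockout replicate 3. At an unadjusted p under 0.05, 2 endothelial and 1 stellate or mesenchymal genes were higher and 0 of either list lower. Their mean levels were 1.73 to 1.83 in knockout and 1.66 to 1.69 in wild type arrays for the first list, and 2.11 to 2.35 in knockout and 2.02 to 2.24 in wild type arrays for the second. Their part in the apolipoprotein values was not tested. Of 10 intestinal markers, another tissue that makes Apoa1, Apoa4 and Apob, 8 had a wild type mean under 2, among them Cdx1, Cdx2 and Vil1, and 2 of the 10, Fabp2 and Krt20, were lower at an unadjusted p under 0.05 and 0 higher. Fabp2 read 7.06, 6.49 and 5.23 in knockout arrays and 7.76, 8.45 and 8.47 in wild type arrays (-1.97, limma adjusted p = 0.229). Krt20, an intestinal keratin, read 2.88, 1.77 and 1.75 in knockout arrays and 2.41, 3.16 and 3.41 in wild type arrays, with overlap (-0.86, limma adjusted p = 0.520).

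The genes whose profile over the 6 arrays lay nearest to the mean of the 9 members were Mff, Mkrn1, Selenos, Prkag1, Eif3k, Adam10, Zmpste24 and Vcam1. Likeness was the root mean square difference of the centred log2 levels over 6 arrays among 2513 genes with a mean of at least 3, members and predicted genes left out, and ran from 0.068 for Mff to 0.087 for Vcam1. The mean of the members was 4.27, 4.36 and 3.80 in knockout arrays and 4.29, 4.45 and 4.70 in wild type arrays, and Mff read 5.04, 5.33 and 4.71 in knockout arrays and 5.17, 5.27 and 5.50 in wild type arrays. Of the hepatocyte markers with a mean of at least 3 Rbp4, which carries retinol in plasma, came nearest, at rank 31 (0.116), and Fabp1 lay at rank 2509 (1.15). Such a likeness over 6 arrays also holds what the arrays share in overall brightness.

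**Figure D5:**
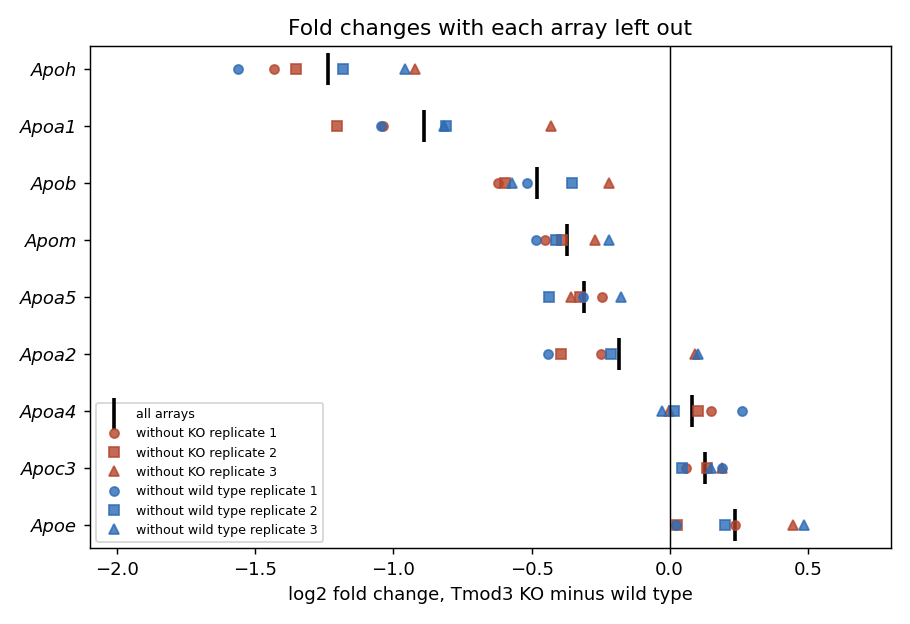
Log2 fold change, Tmod3 knockout minus wild type, of the 9 measured members with all arrays (black bars) and with each array left out (red for a knockout array, blue for a wild type array, the shape giving the replicate). Apoh ranged from -1.56 to -0.92 and Apoa1 from -1.20 to -0.43, while Apoa2 and Apoa4 crossed 0.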

How the data were processed

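Total RNA of 6 fetal livers was hybridised to 1 array each. Per the submitters' processing notes, the deposited values were made with RMA, version not given, which corrects background, normalizes between arrays and summarises probe sets. No source used here states the log base. The range of the deposited numbers was taken to mean log2 (highest value per array 11.8 to 12.7). Of 28853 probe sets, 21789 had 1 gene symbol in the platform annotation, 1621 had several and 5443 none, and the brightest probe set of each of 19938 genes was used, without a filter on dim genes. The 2 genotypes were set against each other in limma 3.58.1 (R 4.3.3; lmFit and eBayes, two-sided, without covariates). Benjamini-Hochberg adjusted p-values covered every named gene, and 0.05 was the threshold. Single values had an exact permutation test over the 20 groupings of 3 against 3 arrays, whose smallest p is 0.1. The limma script was tested on simulated data.

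The members and gene lists were chosen with earlier results of these data known. Named genes are the members, Tmod3, up to 4 genes of a list by smallest p, and the 8 nearest profiles. Others, namely Afp, Trf, Dlk1, Hnf4a, Mttp, Csf1r, Adgre1, Sar1b, Surf4, Rbp4, Sik3, Zpr1 and Cdx1, were named after their values were seen. So were Fga, Itih2 and Ambp. Alternatives were the replicate number as a block, each array left out, other normalizations, probe set rules, filters, variance models and thresholds. Same-numbered arrays did not deviate together in all 3 pairs, so the replicate numbers were not taken as pairs.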

Additional observations from a re-analysis of the deposited data

How the results depend on the processing

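No member passed an adjusted p under 0.05 (limma) with all arrays or in any alternative run, among them other normalizations, filters on dim genes, array weights, all probe sets and a threshold of 0.10. With 1 array left out the count ranged from 0 to 0. The median over the members was -0.31 and ranged from -0.44 to -0.17 with 1 array left out, and it was -0.18 after renewed quantile normalization and -0.17 after cyclic loess. Over all genes 3 passed, against 95 without wild type replicate 1, 0 without wild type replicate 2, 8 with cyclic loess, 6 after renewed quantile normalization, 11 with array weights, 15 among genes with a mean of at least 3, and 0 with the replicate block.

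Signs turned with 1 array left out for Apoa2 (-0.44 to 0.10) and Apoa4 (-0.028 to 0.26). The other 7 members kept their sign in every alternative run. Relative to the mean of the hepatocyte markers no member passed, also with 1 array left out (0 to 0). Signs turned there with 1 array left out for Apoa5 (-0.11 to 0.37), Apob (-0.14 to 0.12) and Apom (-0.024 to 0.25). Relative to the median of the markers 7 members passed, and Apoa1 (0.86) and Apoh (0.52) reversed. The marker median averaged 5.38 over knockout arrays, against 7.13 over wild type arrays, as readings of different genes. How many of all genes passed on that scale was not counted.

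With the replicate block, the median over the members was -0.31 and the smallest limma adjusted p was 0.446 (Apoh). The deviations of same-numbered arrays correlated at 0.139, 0.056 and -0.100, and the numbers were not taken as pairs. So few arrays cannot exclude a pairing. Array medians of 1.36 to 1.43 limit what Apoa4, Apoa5 and Apoc3 can show. At that floor their fold changes do not tell whether, or how far, a transcript changed.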
